A study of Mus musculus with 4 samples.

Results

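The Igf2r and Airn imprinted cluster on mouse chromosome 17 was examined for 5 kb bins whose 5-hydroxymethylcytosine (5hmC) the authors called different between LSH knockout and wild-type cells. All listed bins between 12580001 and 13080000 of mm9 were taken, whatever gene they lay in. There were 13 such bins, 6 on the list of embryonic stem (ES) cells and 7 on the list of mouse embryonic fibroblasts (MEFs), of 17148 distinct bins in all. The window held 100 bins and the 4 imprinted genes Igf2r, Airn, Slc22a2 and Slc22a3.

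The libraries came from ES cells with the gene for LSH knocked out, wild-type ES cells, LSH knockout MEFs and wild-type MEFs, with 1 library in each group and no treatment named. ES cells were grown in serum and LIF, and MEFs in serum. LSH, the product of Hells, is a SNF2-family chromatin remodeler, and 5hmC is the oxidised form of 5-methylcytosine that TET enzymes make. Fragments with 5hmC were glucosylated, biotinylated, captured on streptavidin and sequenced. The labels name no ES line, clone, embryo or MEF passage, and do not say how LSH was removed. The lists give positions only, so a bin is called listed without a direction, a level or a p-value. Read depth is unknown, no replicate error can be given, and ES or MEF identity could not be checked against marker genes.

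Genomic imprinting is the expression of a gene from 1 parental allele, set by DNA methylation laid down in a parent's germ line. In the mouse, Igf2r is expressed from the maternal allele in most tissues. It encodes the cation-independent mannose 6-phosphate receptor, which carries lysosomal enzymes and takes IGF2 to lysosomes for degradation. Airn is a long non-coding RNA transcribed from the unmethylated paternal allele, from a promoter inside Igf2r and antisense to it. Its transcription silences the paternal Igf2r allele, and in the placenta Slc22a2 and Slc22a3, which encode organic cation transporters, are silenced on the paternal allele as well. The CpG island at the Airn start carries the maternal methylation imprint of the cluster. The lists do not separate the parental alleles.

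The sequences below are those on which the positions turn, with each CpG, the site at which most 5-methylcytosine and 5hmC lies, in capitals. They are read 5′ to 3′ from mm9. The Airn and Igf2r islands lie at gene starts that were on neither list, the Slc22a3 island and the Slc22a2 upstream sequence belong to gene starts inside listed bins, and the last sequence is the most CpG-rich part of the listed stretch in Igf2r. For islands and for the stretch, the 300 bases with the most CpG outside untranslated regions are given.
Airn island, chr17:12934598-12934897, plus strand, 31 CpG: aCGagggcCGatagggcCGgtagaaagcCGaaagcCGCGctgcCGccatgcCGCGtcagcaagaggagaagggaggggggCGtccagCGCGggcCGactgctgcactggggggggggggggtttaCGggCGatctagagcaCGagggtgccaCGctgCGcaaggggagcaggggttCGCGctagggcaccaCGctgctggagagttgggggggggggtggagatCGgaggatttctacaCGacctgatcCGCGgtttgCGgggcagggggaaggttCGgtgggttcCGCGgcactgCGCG
Igf2r island, chr17:12962063-12962362, minus strand, 44 CpG: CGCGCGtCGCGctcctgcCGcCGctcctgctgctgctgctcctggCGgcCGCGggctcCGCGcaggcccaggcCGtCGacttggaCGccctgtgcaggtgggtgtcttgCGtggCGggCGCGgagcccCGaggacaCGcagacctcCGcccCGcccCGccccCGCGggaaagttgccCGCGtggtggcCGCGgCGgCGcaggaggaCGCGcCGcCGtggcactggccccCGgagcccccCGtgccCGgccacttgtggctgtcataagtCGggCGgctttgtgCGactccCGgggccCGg
Slc22a3 island, chr17:12699884-12700183, minus strand, 31 CpG: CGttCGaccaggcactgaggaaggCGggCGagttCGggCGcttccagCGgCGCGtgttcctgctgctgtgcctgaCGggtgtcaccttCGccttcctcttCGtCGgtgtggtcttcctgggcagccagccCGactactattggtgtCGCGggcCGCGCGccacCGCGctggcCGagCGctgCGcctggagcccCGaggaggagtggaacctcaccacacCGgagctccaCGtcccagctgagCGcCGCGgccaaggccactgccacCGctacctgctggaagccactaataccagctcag
Slc22a2 upstream, chr17:12776755-12777054, plus strand, 6 CpG: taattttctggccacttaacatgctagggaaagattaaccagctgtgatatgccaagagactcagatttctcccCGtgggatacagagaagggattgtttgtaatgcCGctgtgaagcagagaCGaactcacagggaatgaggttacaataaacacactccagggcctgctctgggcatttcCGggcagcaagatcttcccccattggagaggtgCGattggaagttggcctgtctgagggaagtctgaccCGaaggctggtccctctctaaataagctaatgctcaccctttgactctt
Igf2r listed stretch, chr17:12880565-12880864, plus strand, 17 CpG: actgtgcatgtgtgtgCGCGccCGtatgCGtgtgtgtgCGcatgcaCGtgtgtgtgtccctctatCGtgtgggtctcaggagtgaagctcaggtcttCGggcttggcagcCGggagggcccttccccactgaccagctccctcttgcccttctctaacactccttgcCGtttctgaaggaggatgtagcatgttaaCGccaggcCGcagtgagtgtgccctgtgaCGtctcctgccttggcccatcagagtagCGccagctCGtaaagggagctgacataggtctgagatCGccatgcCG
The Airn sequence lies in intron 2 of Igf2r, the Igf2r sequence overlaps Igf2r exon 1, the Slc22a3 sequence lies in its exon 1, and the stretch sequence lies in intron 44 of Igf2r. Only part of the Slc22a3 sequence lies in the listed ES bin, which begins at 12700001. The other part lies in the bin from 12695001, which was on neither list. The letters show CpG positions only, and which of these cytosines carried 5hmC was not measured per base.

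Igf2r was the gene of the cluster with the most listed bins, and all of them came from ES cells. Igf2r (ENSMUSG00000023830) spans 12875272 to 12962530 on the minus strand, a body of 87.3 kb over 18 bins. In ES cells 4 of these bins were listed, and in MEFs 0 of them were, while over the genome 1.67% of bins were listed in ES cells and 1.75% in MEFs. The 4 bins touched one another and formed a single stretch from 12880001 to 12900000. This stretch of 20 kb covered 22.9% of the gene body. It lay in the 3′ part of the gene, beginning 62.5 kb after the Igf2r start and ending 4.73 kb before the 3′ end.

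The stretch held exons 23 to 44 of the 48 exons of the main Igf2r transcript, 22 exons in all. Its near edge lay 34.2 kb from the Airn start. Exon bases made up 17.8% of the stretch and carried 24.5 CpG per kb, against 13.8 CpG per kb in its introns. Of its 314 CpG, 87 lay in exons and 227 in introns. The bin from 12880001 had 20.4 CpG per kb and 5 exons (40 to 44). The bin from 12885001 had 12 CpG per kb and 4 exons (36 to 39). The bins from 12890001 and 12895001 had 14.8 and 15.6 CpG per kb, with 7 and 6 exons. The bins on either side of the stretch were on neither list, although their density was near that of the listed ones, at 14.2 CpG per kb toward the 3′ end and 11.6 toward the start. A short Igf2r transcript model of the nonsense-mediated decay class begins at 12894145, inside the stretch. The bins were counted as exon bins because the gene's own start lies elsewhere.

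Across chromosomes 1 to 19 and X the ES list held only 2 runs of at least 4 touching bins, and 1 of them was the Igf2r stretch. The other lay in Dnmbp, on chromosome 19 from 43960001 to 43980000. The MEF list held 32 such runs, none of them in the Igf2r window. A listed bin in the body was found in 17.8% of all 26031 genes in ES cells and in 12.7% in MEFs. Among 1376 genes that span within 20% of the number of bins of Igf2r, 507 (36.8%) had an ES bin in the body and 16 (1.16%) had 4 or more. In MEFs, 381 of these genes (27.7%) had a listed bin and the rest, like Igf2r, had 0. The difference between ES cells and MEFs at Igf2r was not tested, since each comparison rests on 1 library a genotype.

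**Figure D1:**
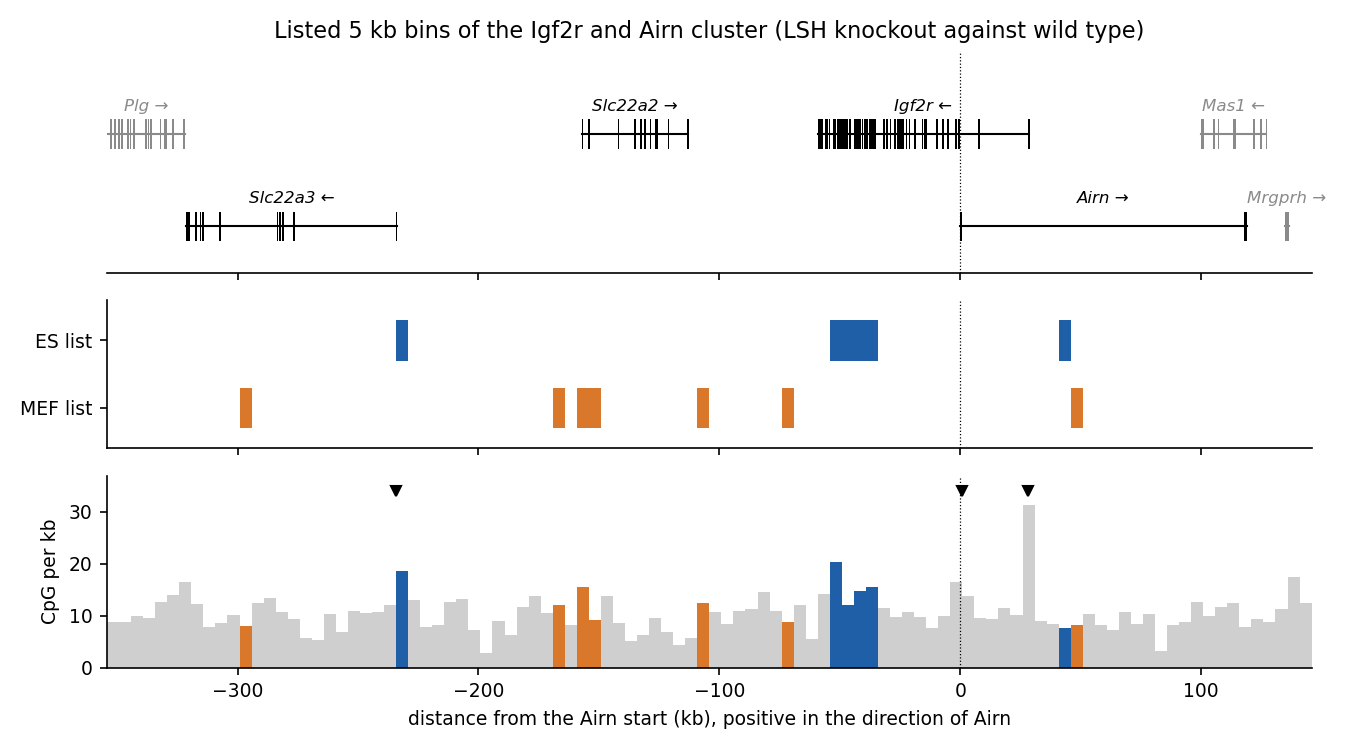
The cluster along distance from the Airn start in kb. Top, genes with exons as blocks, members in black and other genes named here in grey. Middle, listed bins of ES cells (blue) and MEFs (orange). Bottom, CpG per kb of each of the 100 bins as bars, coloured by list and grey where on neither, with triangles at the 3 CpG islands. The 4 touching ES bins lie over the 3′ part of Igf2r, and the bars at the Airn and Igf2r starts are grey.

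Airn, the non-coding RNA transcribed antisense to Igf2r, had 1 listed bin in ES cells and 1 in MEFs. Airn (ENSMUSG00000078247) spans 12934177 to 13052988 on the plus strand, 119 kb over 25 bins. Among 1245 genes of like length, 41.5% had at least 1 ES bin in the body and 37.9% at least 1 MEF bin. The ES bin ran from 12975001 to 12980000, and its near edge lay 40.8 kb after the Airn start. The MEF bin ran from 12980001 to 12985000, 45.8 kb after the Airn start. The bins touched each other without being the same bin. Both lay in the part of Airn beyond the Igf2r start, 12.5 kb (ES) and 17.5 kb (MEF) upstream of Igf2r on its minus strand, and overlapped no annotated exon. They had 7.6 CpG per kb in the ES bin and 8.2 in the MEF bin, below the median of 10.2 over the window. Of all ES bins, 7.67% touched a MEF bin, and 4.75% were identical to a MEF bin. In the cluster 0 bins were on both lists.

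The Airn start itself was on neither list. The start lies in intron 2 of Igf2r, and its CpG island, of 1390 bases with 94 CpG, runs from 12934149 to 12935538. It spans the bins from 12930001 (16.6 CpG per kb) and 12935001 (13.8 CpG per kb), and neither was listed in ES cells or in MEFs. The nearest ES bin was the edge of the Igf2r stretch, 34.2 kb away on the side of the Igf2r 3′ end. The nearest MEF bin was the one in Airn, 45.8 kb away. The 28.4 kb in which Igf2r and Airn overlap held 6 bins by midpoint, and 0 of them were listed in either cell type. On the side of lower coordinates the window had 70 bins, with 5 listed in ES cells and 6 in MEFs. On the side of higher coordinates it had 29 bins, with 1 listed in each.

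The Igf2r start was on neither list either. Its CpG island, of 1134 bases with 115 CpG, runs from 12961873 to 12963006 and made the bin from 12960001 the most CpG-rich of the window, with 31.4 CpG per kb. The 300 bases before the Igf2r start held 35 CpG, and 5.85% of 26025 genes had as many or more. The upstream sequences of Airn, Slc22a2 and Slc22a3 held 3, 6 and 6 CpG. Slc22a2 had no island, and nearly all of the Airn island lies after the Airn start. The nearest ES bin was 12.5 kb from the Igf2r start and the nearest MEF bin 17.5 kb. A bin missing from a list may have had no change or a change below the caller's threshold, and these cannot be told apart.

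**Figure D2:**
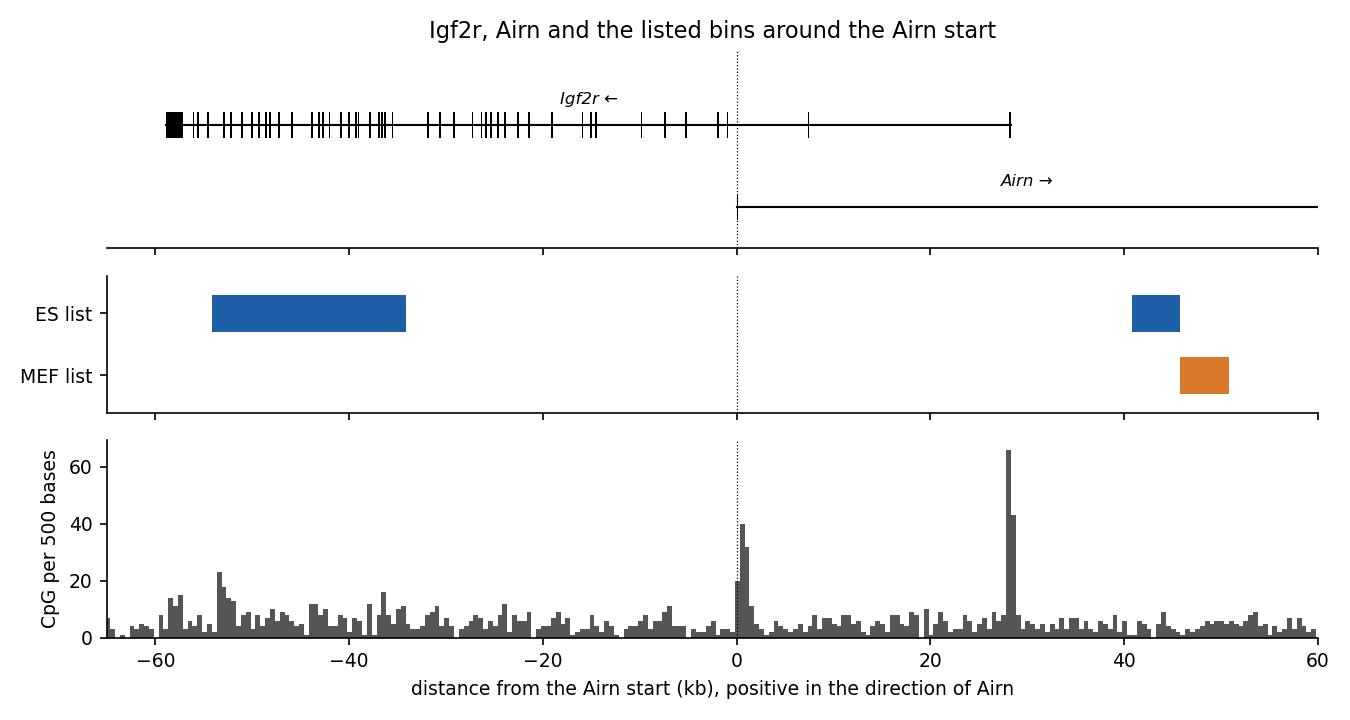
Igf2r and Airn around the Airn start, with distance in kb. Top, exons of both genes. Middle, listed bins of ES cells (blue) and MEFs (orange). Bottom, CpG count in each 500 bases. The ES stretch of 20 kb ends 34.2 kb before the Airn start, and the CpG peaks at the Airn start and at the Igf2r start have no listed bin over them.

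Slc22a3, which encodes an organic cation transporter imprinted in the placenta, had its start inside an ES bin and an intronic bin in MEFs. Slc22a3 (ENSMUSG00000023828) spans 12612838 to 12700570 on the minus strand, 87.7 kb over 19 bins. The ES bin ran from 12700001 to 12705000 and held the start with part of exon 1 and part of the CpG island of the gene, which runs from 12699765 to 12700487 with 65 CpG. With 18.6 CpG per kb it ranked below 2 bins of the window in CpG density. Of the 3 islands of the cluster, this 1 was touched by a listed bin. The MEF bin ran from 12635001 to 12640000, 60.6 kb after the start, in an intron, with 8.0 CpG per kb. Of 1273 genes of like length, 37.5% had an ES bin in the body and 28.8% a MEF bin. Only 570 bases of the ES bin lay in the Slc22a3 body, and the rest lay before the start. Counted by bin midpoint, the body held 0 ES bins and 1 MEF bin.

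Slc22a2, the neighbouring organic cation transporter gene, was reached in MEFs and not in ES cells. Slc22a2 (ENSMUSG00000040966) spans 12777055 to 12821331 on the plus strand, 44.3 kb over 10 bins, of which 0 were listed in ES cells and 2 in MEFs. The MEF bin from 12775001 to 12780000 held the start with exons 1 and 2 and had 15.6 CpG per kb. The adjoining bin from 12780001 to 12785000 lay in an intron, with 9.2 CpG per kb. A further MEF bin, from 12765001 to 12770000, lay 7.06 kb before the start and joined them into a stretch of 20 kb with 1 unlisted bin in it. Among 2908 genes of like length, 25.6% had an ES bin in the body and the rest, like Slc22a2, had 0. In MEFs, 17.4% of these genes had a listed bin in the body and 4.37% had 2 or more. The nearest ES bin lay 72.1 kb from the Slc22a2 start.

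Genes of the window that are not imprinted members had 0 bins in ES cells. Most of all 26031 genes had none either, since 17.8% had an ES bin in the body and 12.7% a MEF bin. A MEF bin from 12825001 to 12830000 lay in the interval after the Slc22a2 3′ end. Of the 32-base words in it, 24.8% occur more than once in the genome, this bin included. That was the highest share among the 13 listed bins. Plg, the plasminogen gene, and Mas1 and Mrgprh, which encode G protein-coupled receptors, had 0 bins in either list. So did the small models 7SK, Gm16574, Gm7162, Gm17592 and AL589878.1, each of which spans 1 bin.

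By position, the 6 ES bins were 1 promoter bin, 4 exon bins and 1 intron bin. The 7 MEF bins were 1 promoter bin, 1 exon bin, 3 intron bins and 2 intergenic bins. A promoter bin lies within 1 kb of a gene start. The whole window had 11 promoter, 45 exon, 25 intron and 19 intergenic bins. The ES bins joined into 3 stretches over gaps of up to 10 kb, and the MEF bins into 5. Of the MEF bins, 1 lay in Slc22a3, 2 in Slc22a2, 1 in Airn and 2 between genes.

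The share of listed bins in the cluster was above the genome's in both cell types. In ES cells 6 of 100 bins were listed, or 6.0% [2.23% to 12.6%], against 1.67% of 511186 bins over chromosomes 1 to 19 and X. In MEFs 7 of 100 bins were listed, or 7.0% [2.86% to 13.9%], against 1.75%. Brackets give exact 95% binomial intervals, which cover counting error over bins only. Neighbouring bins are not independent, and the cluster was chosen with the lists known, so the intervals are a description. Of 5079 windows of 500 kb laid along the genome, 8.37% had at least 6 ES bins and 6.16% had at least 7 MEF bins. Both counts were reached by 71 windows, or 1.4%.

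The cluster was also richer in CpG than most of the genome, with a median of 10.2 CpG per kb over its bins, against 7.0 over all bins. In 810 windows with a median within 1 CpG per kb of that of the cluster, 15.9% had at least 6 ES bins and 13.6% at least 7 MEF bins, and 2.10% reached both. The number of listed bins thus stood less apart among windows of like CpG density than among all windows.

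**Figure D3:**
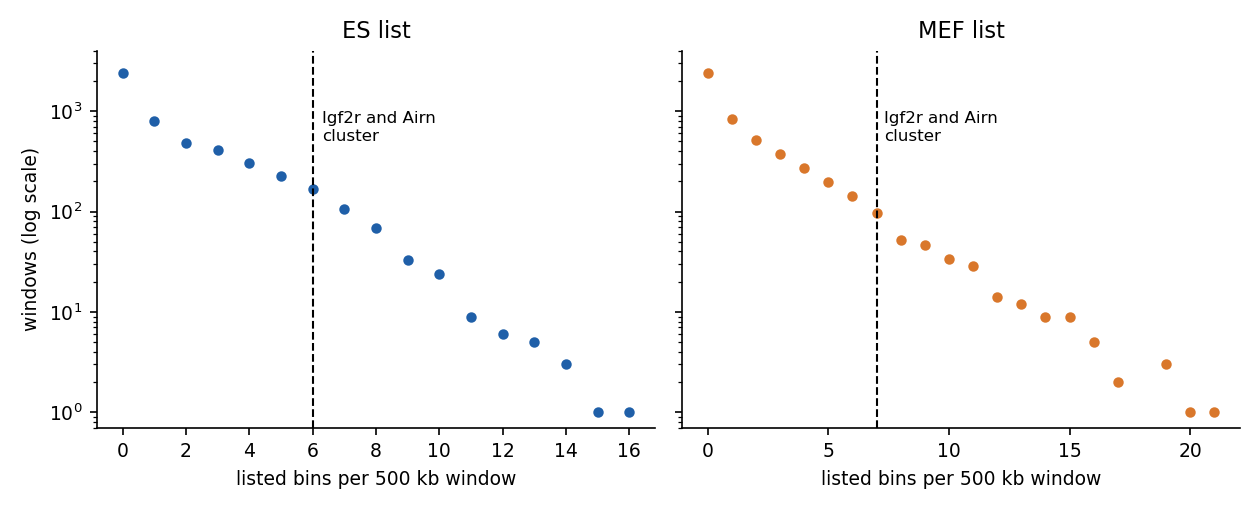
Number of 500 kb windows (log scale) with each number of listed bins, for ES cells on the left and MEFs on the right. The dashed line marks the Igf2r and Airn cluster, with 6 ES bins and 7 MEF bins, to the right of most windows in both panels.

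Listed ES bins of the cluster were denser in CpG than listed MEF bins. The median was 15.2 CpG per kb over the 6 ES bins (7.6 to 20.4) and 9.2 over the 7 MEF bins (8.0 to 15.6), against 10.0 over the 87 bins on neither list (2.8 to 31.4). Over the whole lists the medians were 12.6 in ES cells and 11 in MEFs. The ranges of ES and MEF bins overlapped, and 4 of the 6 ES bins are the touching bins of the Igf2r stretch. Median GC content was 48.6% in the ES bins and 45.1% in the MEF bins.

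When the genome's bins were divided at the deciles of CpG density into 10 groups of unequal size, 10 bins of the cluster were in the highest group. Of these, 4 were on the ES list and 1 on the MEF list. Genome-wide, 5.64% of bins in that group were listed in ES cells and 3.66% in MEFs. Those on neither list included the Igf2r and Airn starts. The median share of repeated 32-base words was 2.8% in ES bins, 5.5% in MEF bins and 5.26% in bins on neither list. It ran from 0.82% to 17.6% in ES bins and from 2.14% to 24.8% in MEF bins. Of the 100 bins of the window 10 were above 20%, among them 1 MEF bin and 0 ES bins.

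**Figure D4:**
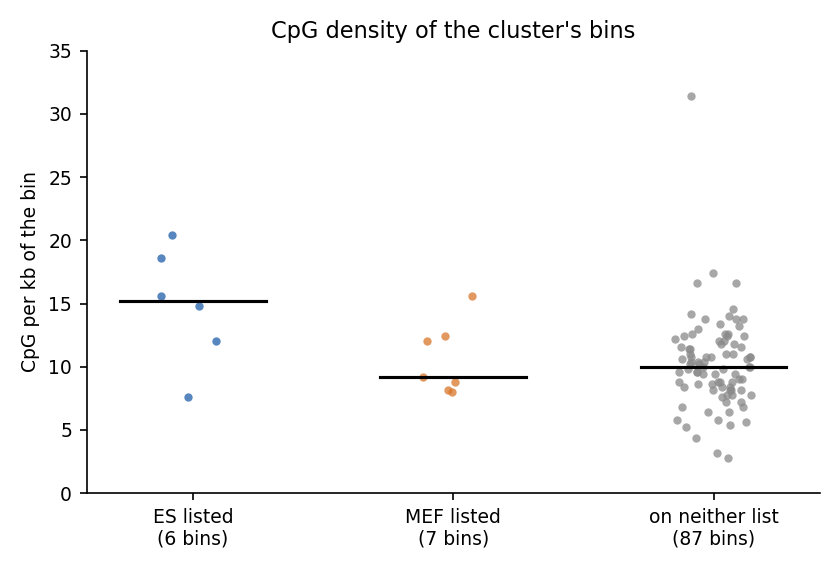
CpG per kb of the 100 bins of the cluster, by list. Each point is a bin and the black line is the median, at 15.2 for ES bins, 9.2 for MEF bins and 10.0 for bins on neither list. The bin with the highest value, 31.4, holds the Igf2r start and is on neither list.

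Genes that work with the cluster's products were counted by whether a listed bin lay in the body or the 5 kb before the start. Of all 26031 genes, 19.8% had such an ES bin and 14.1% such a MEF bin. Of 18 genes for IGF ligands, receptors and binding proteins, 7 had an ES bin and 7 a MEF bin (38.9% each). Igf1r, the receptor through which IGF ligands signal, had 7 ES bins and 5 MEF bins over a body of 274 kb. Igf2bp1 had 2 ES bins and 0 MEF bins, Igf2bp2 had 2 of each and Igf2bp3 had 1 of each. These encode proteins that bind Igf2 mRNA. Igfbp7 had 1 ES bin and 2 MEF bins. Igfbp2, a secreted IGF-binding protein gene, and Irs2, an adaptor gene downstream of the receptors, had 1 ES bin each and 0 MEF bins. Igf1, Irs1 and Igfals had 0 ES bins and 1 MEF bin each. Igf2 itself, the ligand that Igf2r clears, had 0 bins in either list.

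Of 11 genes for mannose 6-phosphate sorting, the lysosomal route that Igf2r serves, 6 had an ES bin (54.5%) and 4 a MEF bin (36.4%). M6pr, the cation-dependent mannose 6-phosphate receptor gene, had 2 ES bins and 0 MEF bins. Sort1, a sorting receptor gene, and Gga1 and Gga2, adaptor genes of the trans-Golgi network, had 1 bin in each list. Gga3 and the retromer gene Vps26a had 1 ES bin each and 0 MEF bins. Gnptab, which encodes the enzyme subunit that starts the mannose 6-phosphate tag, had 0 ES bins and 2 MEF bins.

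Of 16 Slc22 family genes outside the cluster, 1 had an ES bin (6.25%) and 0 had a MEF bin. The ES gene was Slc22a23, with 2 bins. Of 21 genes of other imprinted clusters with a long non-coding RNA, 6 had an ES bin (28.6%) and 4 a MEF bin. Kcnq1, a potassium channel gene, had 1 bin in each list, as had Peg3, which encodes an imprinted zinc finger protein. Gnas, the stimulatory G protein alpha subunit gene, had 2 ES bins and 1 MEF bin. The same 2 ES bins count for its antisense transcript Nespas, which had 0 MEF bins, so the 6 ES genes rest on 6 distinct bins. Ascl2 and Rtl1 had 1 ES bin and 0 MEF bins, and Rian 0 ES bins and 1 MEF bin. Median gene length was 24.7 kb in the IGF list, 19.8 kb in the sorting list, 26.4 kb in the Slc22 list and 14.5 kb in the imprinted list, against 13.6 kb over all genes. Longer genes take more bins, and these shares were not adjusted for length, so nothing particular to a list is read from them.

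**Figure D5:**
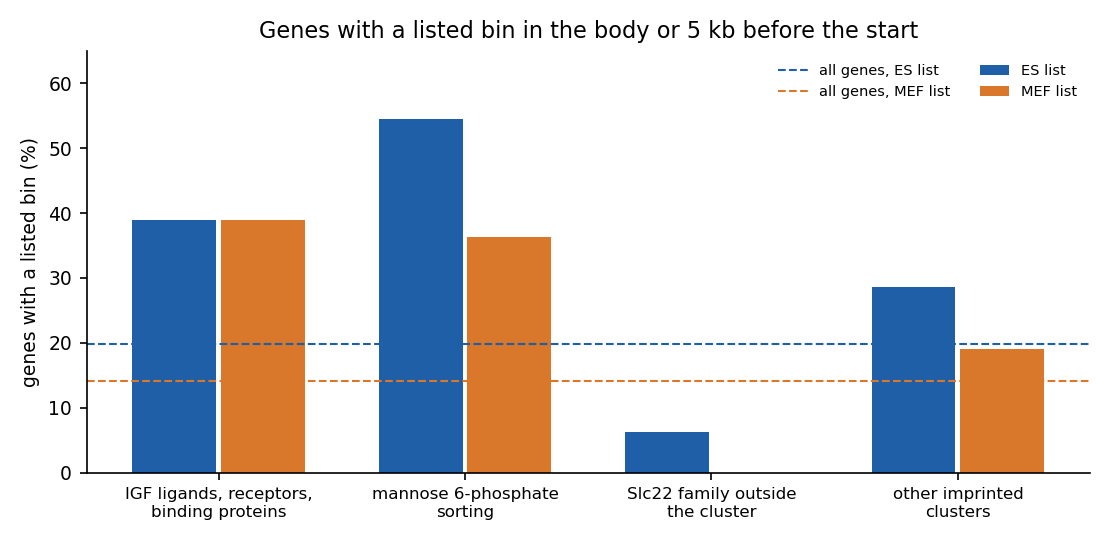
Share of genes with a listed bin, in percent, for 4 gene lists, ES cells in blue and MEFs in orange. Dashed lines give the share over all genes, 19.8% for ES cells and 14.1% for MEFs. The IGF and mannose 6-phosphate lists stand above both lines and the Slc22 family outside the cluster below them.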

How the data were processed

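DNA with 5hmC was captured from LSH knockout and wild-type ES cells and MEFs and sequenced, 1 library a group, per the labels' protocols. The submitters' processing notes name BWA, SAMtools 1.3.1 and mm9, with no role. The caller, its threshold and any input library are unknown. What the authors deposited is other than a measured level, since each file lists 5 kb bins called differential by chromosome, start, end and running number.

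Starts were turned to 1-based positions on NCBIM37 (mm9) with GENCODE M1 genes. On chromosomes 1 to 19 and X, the running number matched this reference for 8545 bins of the ES file and 8972 of the MEF file, that is, for every bin. A bin was used where at most 50% of its bases were undetermined, which removed 1 listed MEF bin. RefSeq promoters (GRCm38.p6), found in mm9 by exact match, gave the GENCODE start for Slc22a2, Slc22a3 and Airn and a start 42 bases away for Igf2r. A bin belonged to a gene by any overlap. CpG islands had at least 55% GC, observed over expected CpG of 0.65 and 500 bases.

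No test was made and no p-value given, since each list rests on 1 library a genotype. Named genes were the 4 members, every other gene of the window except 1 that is not reported here, and from each gene list up to 6 genes with a listed bin, by number of bins, with ties added. Of 67 symbols on these lists 66 were found. The members, lists and alternatives were chosen with earlier results of these data known. Counting was tested on simulated lists. Python 3.11.15, numpy 2.4.6, scipy 1.17.1, numba 0.67.0 and matplotlib 3.10.9 were used.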

Additional observations from a re-analysis of the deposited data

How the results depend on the processing

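No paired analysis was possible because each group has 1 library and the lists hold no values per library, so no library could be left out either. With bins that touch or lie within 10 kb counted as shared, in place of identical bins, the number of ES bins shared with MEFs was 1 under each rule, against 0 for identical bins. The counts of ES and MEF bins were 6 and 7 between the outermost ends of the member genes and by bin midpoint, and 9 and 10 with the window widened by 100 kb on each side. Bins over Igf2r stayed at 4 in ES cells and 0 in MEFs, and over Airn at 1 in each, by midpoint and with 5 kb before the start added. Joining only touching bins gave 3 ES and 6 MEF stretches. Median CpG density stayed at 15.2 in ES bins and was 9.0 in MEF bins without repeat-rich bins, and over Igf2r and Airn alone it was 14.8 in ES bins, while the single MEF bin there had 8.2. Chosen after the data were seen, windows laid from chromosome starts gave 8.22% (ES) and 6.16% (MEF), and gene bodies alone gave 3 in place of 4 genes in MEFs for mannose 6-phosphate sorting and for the imprinted list. Unknown depth limits every value: which bins could have been called is not known.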

Other observations

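Beyond the window, listed bins lay in genes on either side of the cluster. Toward higher coordinates, Pnldc1, which encodes a poly(A)-specific ribonuclease-like protein, had 2 ES bins, from 13085001 and from 13095001, with 15.0 and 14.0 CpG per kb. Its MEF bin from 13080001 began at the edge of the window and had 16.4 CpG per kb. All 3 held exons. Toward lower coordinates the nearest listed bin was a MEF bin from 12515001, 60 kb outside, over the lincRNA 4732491K20Rik. Within 100 kb of the window, Map3k4, a stress kinase gene, had an intronic ES bin from 12480001 and an intronic MEF bin from 12495001.

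With CpG islands taken from 50% GC, an observed over expected CpG of 0.6 and 200 bases, a definition chosen after the data were seen, the window held 17 islands. ES bins touched 2 of them, both at the Slc22a3 start, and MEF bins touched 1, in the interval after the Slc22a2 3′ end. The island touched by a MEF bin held only 3 CpG in 202 bases, although it passed this definition. None of the 17 lay in the Igf2r stretch. The Dnmbp stretch, the other run of 4 touching ES bins, had a median of 17.1 CpG per kb, against 15.2 in the Igf2r stretch.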
